A study of Mus musculus with 8 samples.

Results

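Immediate early genes are the first genes that a cell transcribes after stimulation, without new protein synthesis. In striatal neurons they are switched on within minutes by glutamate and dopamine, through calcium, cyclic AMP and the ERK kinases, which act on the transcription factors CREB, SRF and its partner ELK1 at the promoters. Their transcripts are short-lived, so that their level at dissection reflects recent activity as well as handling of the animal. The 10 immediate early genes described here are Fos, Fosb, Junb, Egr1, Egr2, Egr4, Nr4a1, Npas4, Arc and Dusp1. They were taken by symbol from the 55032 genes of the count and FPKM table, and all 10 passed the expression filter, as did 18294 genes in all. FPKM is the number of fragments relative to gene length and to all counted fragments of the library.

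The samples were striatum of 4 female wild type (WT) mice and of 4 female 16p11.2+/- mice at postnatal day 60, both C57BL/6. The 16p11.2+/- mice carry a heterozygous deletion of the segment of mouse chromosome 7 that corresponds to human 16p11.2, and their libraries are labelled DF. The tissue was taken under deep terminal anaesthesia and frozen at once, and neither the anaesthetic nor the hour of collection is given in the sources used here. Each mouse gave 1 library, with between 15125051 and 16523429 counted reads.

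The libraries differed in the tissue they held. The score of medium spiny neuron markers (the mean log2 CPM, library-scaled counts on a log scale, of 7 genes such as Drd1, Drd2 and Ppp1r1b) was between 8.22 and 8.96 in the 4 WT mice, 8.87 in DF-1018 and 8.73 in DF-1059. In DF-1037 it was 6.75 and in DF-1062 it was 6.15. Summed over the 7 markers, which were all tested and at 0 in no library, the level was between 2850 and 4784 CPM in WT and between 644 and 4410 CPM in 16p11.2+/- mice. The score of 7 thalamic neuron markers was at most 4.03 in WT-1015, WT-1041, WT-1061 and DF-1059 and at least 6.18 in WT-1063, DF-1018, DF-1037 and DF-1062. The score of 7 cortical glutamatergic neuron markers ranged from 1.69 to 5.40 in WT and from 1.26 to 5.48 in 16p11.2+/- mice, and was low in WT-1063, DF-1018 and DF-1062. The score of choroid plexus markers was 8.41 in WT-1063 and 5.75 in WT-1015, against at most 4.43 in the other mice. The 6 oligodendrocyte markers summed to between 6424 and 7768 CPM in WT and between 3903 and 5756 CPM in 16p11.2+/- mice, with no overlap, and 4 of the 6 had an unadjusted edgeR p under 0.05. Of the cortical and of the choroid plexus markers 1 each had no count in at least 1 library. In such pieces of tissue, fewer cells of a type and less RNA per cell cannot be told apart from RNA alone. The edgeR fit was therefore also run without libraries that stood apart. For oligodendrocytes, the paper stained striatum sections of the same age, from 4 mice per genotype. It reported no difference between genotypes in the numbers of lineage cells or of mature cells.

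Of the 10 genes, 9 had a lower level in 16p11.2+/- striatum, with a median log2 fold change of -0.62 against -0.01 over all genes tested. The exception was Fos. Of the 10 genes, 6 had an unadjusted edgeR p under 0.05, all in the direction of lower expression: Npas4, Nr4a1, Egr2, Fosb, Junb and Egr4. Of the genes tested, 51.8% had a value below 0 and 2.37% were lower at this p and 1.95% were higher. After Benjamini-Hochberg adjustment over the 18294 genes 0 of the 10 passed 0.05, with an adjusted edgeR p from 0.859 to 0.873, and DESeq2 and limma-voom also called 0. Over all genes, 0.109% were called, 0.0929% lower and 0.0164% higher. At an unadjusted p under 0.05, DESeq2 gave 7 of the 10 genes and limma-voom 5, all lower. Over the 18294 genes DESeq2 gave 429 lower and limma-voom 465. The values of each gene therefore stand as descriptions of 8 mice. The 10 genes were chosen with earlier results of these data known, so their counts give no test against all genes.

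For Fos, Junb, Egr4 and Nr4a1, which have 1 window each in the promoter table, the 250 bases before the RefSeq transcription start (build GRCm38.p6) lay outside every GENCODE M21 exon. They are shown because the genes are induced by shared signals: Fos, the gene that was not lower, beside Junb, Egr4 and Nr4a1. Capitals mark matches, on either strand, to the core of the cyclic AMP response element (TGACG, or CGTCA on the other strand), to the EGR site (GCGTGGGCG or GCGGGGGCG) and to TATAAA, and the sequences are written 5′ to 3′ on the strand of the gene.
Fos, chr12:85473640-85473889, forward strand: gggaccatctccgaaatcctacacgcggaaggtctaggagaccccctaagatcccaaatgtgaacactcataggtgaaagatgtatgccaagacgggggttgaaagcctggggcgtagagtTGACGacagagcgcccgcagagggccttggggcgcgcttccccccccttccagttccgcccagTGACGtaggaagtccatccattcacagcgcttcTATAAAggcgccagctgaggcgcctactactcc
Junb, chr8:84978749-84978998, reverse strand: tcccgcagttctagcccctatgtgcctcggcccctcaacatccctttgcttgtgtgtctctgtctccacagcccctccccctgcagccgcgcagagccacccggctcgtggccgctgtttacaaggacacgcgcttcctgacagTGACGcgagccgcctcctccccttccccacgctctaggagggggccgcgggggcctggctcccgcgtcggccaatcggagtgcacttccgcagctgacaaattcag
Egr4, chr6:85513590-85513839, reverse strand: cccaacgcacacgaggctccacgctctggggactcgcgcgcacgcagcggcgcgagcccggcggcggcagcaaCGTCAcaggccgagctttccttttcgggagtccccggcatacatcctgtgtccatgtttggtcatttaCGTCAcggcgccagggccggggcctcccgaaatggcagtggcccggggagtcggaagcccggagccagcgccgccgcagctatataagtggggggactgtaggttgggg
Nr4a1, chr15:101266596-101266845, forward strand: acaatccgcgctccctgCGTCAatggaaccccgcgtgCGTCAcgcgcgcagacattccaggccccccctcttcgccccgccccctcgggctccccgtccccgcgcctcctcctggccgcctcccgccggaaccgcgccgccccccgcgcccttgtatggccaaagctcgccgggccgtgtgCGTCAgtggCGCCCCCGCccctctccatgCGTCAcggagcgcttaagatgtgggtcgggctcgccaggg

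The core was found in a window of each of the 8 genes with an entry in the promoter table, which were Fos, Fosb, Junb, Egr2, Egr4, Nr4a1, Npas4 and Dusp1. Of all 27025 genes in that table, 19.8% held it in at least 1 window. Nr4a1 had 4 matches and Fos 2. The full element TGACGTCA, which contains the core on both strands, was found among these genes in Dusp1 alone, and 1.77% of all genes held it. The EGR site, bound by the proteins of the Egr genes, was found in Fosb and Nr4a1, against 3.47% of all genes. A CArG box, the site of SRF, was found in Egr2, in 4 of its 5 windows, and in 1.62% of all genes. Some of these windows of Egr2 overlap and hold the same site. The AP-1 site TGANTCA, to which dimers of FOS and JUN proteins bind, was found in 0 of the 8 genes and in 7.82% of all genes. TATAAA was found in Fos and in 14.3% of all genes. These are matches of letters in a short window and say nothing about occupancy.

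Npas4 encodes a neuronal transcription factor that is induced by calcium entry (ENSMUSG00000045903, chromosome 19 from 4984355 to 4990316, GRCm38). It had an FPKM of 8.33 in WT-1015, 6.77 in WT-1041, 7.11 in WT-1061 and 5.23 in WT-1063. In 16p11.2+/- mice it was 2.78 in DF-1018, 5.53 in DF-1037, 2.74 in DF-1059 and 3.23 in DF-1062. Of these values 3 lay below every WT mouse, and DF-1037 lay just above the lowest WT mouse. The means were 6.86 ± 1.278 (SD, n = 4) and 3.57 ± 1.32 (SD, n = 4), and an exact permutation test gave p = 0.0571. In edgeR the log2 fold change was -0.96, with a standard error of 0.25 and an unadjusted p of 0.00407. This was the smallest p of the 10 genes, and Npas4 stayed at an unadjusted p under 0.05 in all 22 other fits. Without DF-1037 the log2 fold change was -1.26, with an adjusted edgeR p of 0.0899, the lowest adjusted p of any member in any fit.

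Nr4a1 encodes the orphan nuclear receptor NUR77 (ENSMUSG00000023034, chromosome 15 from 101254269 to 101274795, so that the promoter shown lies inside the gene). Its FPKM was 19.9 in WT-1015, 14.99 in WT-1041, 16.5 in WT-1061 and 13.0 in WT-1063. It was 10.5 in DF-1018, 12.6 in DF-1037, 9.43 in DF-1059 and 6.66 in DF-1062. The highest 16p11.2+/- value was under the lowest WT value, and the means were 16.1 ± 2.88 (SD, n = 4) and 9.82 ± 2.49 (SD, n = 4). An exact permutation test gave p = 0.0286, the smallest that 4 mice against 4 allow. The log2 fold change was -0.73 (standard error 0.21, edgeR unadjusted p = 0.00811), and it was between -0.87 and -0.56 with each mouse left out. Nr4a1 too kept an unadjusted p under 0.05 in all 22 other fits. Of the genes tested, 1.71% had every 16p11.2+/- mouse below every WT mouse, and among the 10 members these were Nr4a1 and Egr2.

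The Egr genes encode zinc finger transcription factors. Egr2 lies on chromosome 10 from 67535475 to 67542188 and Egr4 on chromosome 6 from 85511121 to 85513589. Egr2 had the most negative log2 fold change, -1.33 (standard error 0.46, edgeR unadjusted p = 0.0178), on low counts of 14 to 68 reads per 16p11.2+/- mouse and 80 to 157 per WT mouse. Its FPKM was 2.65 in WT-1015, 1.58 in WT-1041, 2.82 in WT-1061 and 1.46 in WT-1063, and 0.850 in DF-1018, 1.30 in DF-1037, 1.01 in DF-1059 and 0.249 in DF-1062. The groups did not overlap (p = 0.0286, exact permutation), and DF-1062 lay far below the rest. Egr4 had an FPKM of 4.68, 3.43, 2.84 and 1.56 in WT-1015, WT-1041, WT-1061 and WT-1063, and of 1.95, 1.76, 2.32 and 1.27 in DF-1018, DF-1037, DF-1059 and DF-1062. The 3 higher WT mice lay above every 16p11.2+/- mouse and WT-1063 lay among them (log2 fold change -0.79, standard error 0.34, edgeR unadjusted p = 0.0448). Egr1, the most abundant of the 10 genes per length, had an FPKM of 47.2, 26.8, 30.7 and 20.1 in the same WT mice and of 23.1, 25.2, 20.5 and 11.9 in the same 16p11.2+/- mice. Here also WT-1063 lay among the 16p11.2+/- values, and the log2 fold change was -0.65 (standard error 0.31, 95% interval -1.35 to 0.06). Without WT-1015 it was -0.36 for Egr1 and -0.52 for Egr4, and without DF-1062 it was -0.44 for Egr1.

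Fosb and Junb encode subunits of the AP-1 transcription factor and lie on chromosome 7 from 19302696 to 19310051 and on chromosome 8 from 84974484 to 84978718. Fosb had an FPKM of 2.46, 2.75, 2.24 and 1.70 in WT-1015, WT-1041, WT-1061 and WT-1063, and of 1.71, 1.84, 1.70 and 1.46 in DF-1018, DF-1037, DF-1059 and DF-1062. It was the gene with the narrowest range among 16p11.2+/- mice, and the 3 higher WT mice lay above all of them (log2 fold change -0.46, standard error 0.17, edgeR unadjusted p = 0.0225). Junb had an FPKM of 10.8, 8.77, 11.19 and 6.77 in WT mice in this order and of 7.67, 6.63, 7.16 and 4.71 in 16p11.2+/- mice (log2 fold change -0.54, standard error 0.22, edgeR unadjusted p = 0.0350). For Junb 7.52% of the exon sequence overlaps Prdx2 on the opposite strand, and the strand setting of the counting is not given in the sources used here.

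Arc, whose product acts at synapses in the trafficking of AMPA receptors (chromosome 15 from 74669083 to 74672570), had an FPKM of 27.5 in WT-1015, 19.3 in WT-1041, 14.5 in WT-1061 and 13.8 in WT-1063. It was 10.9 in DF-1018, 21.3 in DF-1037, 10.2 in DF-1059 and 7.96 in DF-1062. For Arc 3 of the 16p11.2+/- values were under the lowest WT value, but DF-1037 lay above 3 of the WT mice. The log2 fold change was -0.59 (standard error 0.34, 95% interval -1.36 to 0.18), and 1 mouse could move it either way. It was -0.97 without DF-1037 (edgeR unadjusted p = 0.00691), -0.33 without WT-1015 and -0.40 without DF-1062.

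Fos and Dusp1 did not follow the other genes. Fos, the AP-1 subunit most used as a marker of activated neurons (chromosome 12 from 85473890 to 85477273), had an FPKM of 3.04 in WT-1015, 3.36 in WT-1041, 2.36 in WT-1061 and 4.16 in WT-1063. It was 2.09 in DF-1018, 5.98 in DF-1037, 2.61 in DF-1059 and 5.84 in DF-1062. The 2 mice above every WT mouse were DF-1037 and DF-1062, the libraries with the low medium spiny neuron score, and DF-1018 lay below every WT mouse. The log2 fold change of 0.33 (standard error 0.35, 95% interval -0.46 to 1.11) was smaller than its error. It was 0.09 without DF-1037 and 0.15 without DF-1062, and it turned to -0.45 without both and to -0.31 with the medium spiny neuron score as a covariate. Dusp1, a phosphatase that inactivates MAP kinases (chromosome 17 from 26505590 to 26562128), had an FPKM of 7.40, 5.78, 6.13 and 10.8 in WT mice and of 5.89, 8.36, 5.63 and 5.65 in 16p11.2+/- mice, in the order used above. Its highest value was in WT-1063, the library with the highest choroid plexus and thalamic scores, and its next in DF-1037 (log2 fold change -0.26, standard error 0.22). The log2 fold change of Dusp1 was -0.04 without WT-1063, -0.41 without DF-1037 and -0.17 without DF-1062, and 0.09 without WT-1015 and WT-1063.

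**Figure D1:**
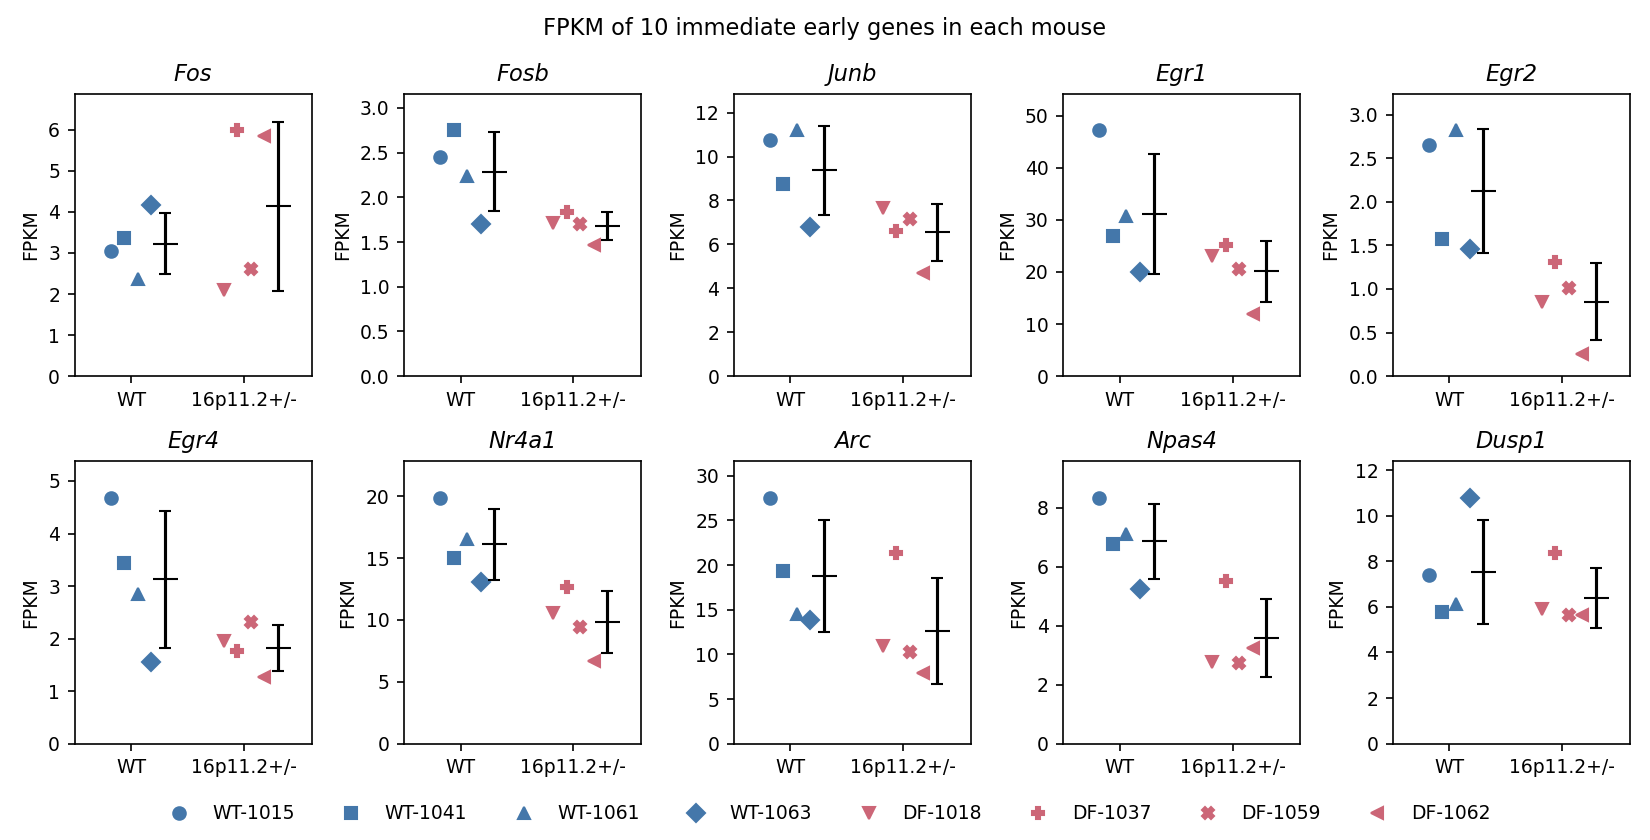
FPKM (linear axis from 0) of the 10 genes in each of 4 WT and 4 16p11.2+/- mice, with a symbol for each mouse and a black bar for mean ± SD. Nr4a1 and Egr2 do not overlap between genotypes, whereas the 2 highest values of Fos are 5.98 and 5.84 in DF-1037 and DF-1062.

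The differences were read again without the libraries that stood apart. Without DF-1037 and DF-1062 the log2 fold changes of all 10 genes were below 0 (median -0.53), and 4 (Npas4, Nr4a1, Egr2 and Arc) had an unadjusted edgeR p under 0.05. With the medium spiny neuron score as a covariate the 10 log2 fold changes were again negative, with a median of -0.46, and Npas4 (-1.14) and Nr4a1 (-0.60) had an unadjusted p under 0.05. With the thalamic score as a covariate this held for Npas4, Nr4a1 and Dusp1, and with the cortical score for Npas4, Nr4a1, Egr2 and Fosb. The count of 6 genes was 3 without WT-1015, which had the highest value of 5 of the 10 genes, and 3 without DF-1062, which had the lowest value of 7. Without WT-1063 it was 7. Over all genes, 434 of 18294 were lower at this p in the main fit and 455 of 19092 without DF-1037 and DF-1062. With the medium spiny neuron, thalamic and cortical scores 372, 530 and 361 of 18294 were lower. Without WT-1015 it was 289 of 18673, without DF-1062 258 of 18638 and without WT-1063 578 of 18641.

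**Figure D2:**
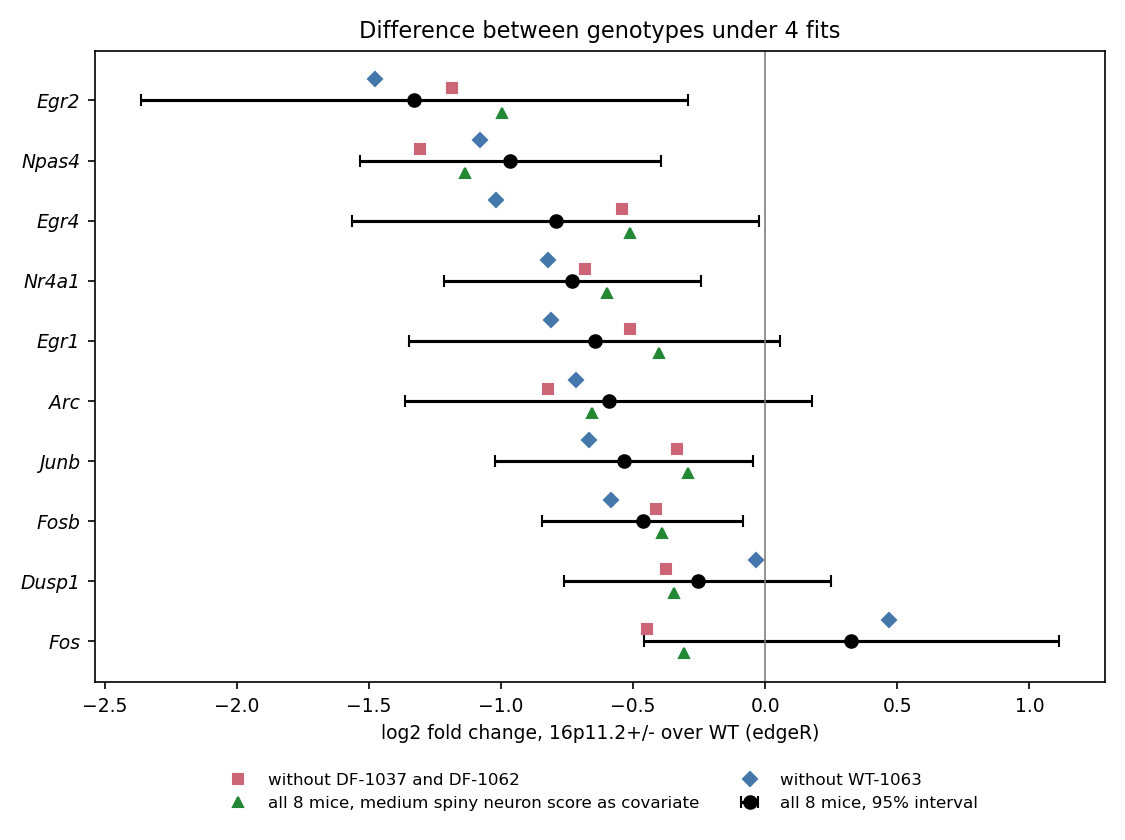
log2 fold change of each gene (16p11.2+/- over WT, edgeR) with its 95% interval from all 8 mice, and the estimates from 3 other fits without intervals. Fos moves from 0.33 with all mice to -0.45 without DF-1037 and DF-1062, whereas Npas4 and Nr4a1 stay well below 0 in each.

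The genotypes were also compared within libraries of like thalamic score. Among the 4 libraries with a low thalamic score, DF-1059 lay below WT-1015, WT-1041 and WT-1061 for 9 of the 10 genes, with Fos as the exception, and for 25.0% of all genes tested. The log2 ratio of DF-1059 to the mean of the 3 WT mice had a median of -0.71, and it was -1.43 for Npas4, -1.21 for Egr2 and -0.86 for Nr4a1. Among the 4 libraries with a high thalamic score, DF-1018, DF-1037 and DF-1062 lay below WT-1063 for 3 genes, Egr2, Nr4a1 and Dusp1, and on both sides of it for the other 7, and 21.6% of all genes tested lay below it in these 3 mice. The median log2 ratio there was -0.07, with -0.86 for Egr2, -0.70 for Dusp1, -0.44 for Npas4, -0.39 for Nr4a1 and -0.0026 for Egr1. These sets were formed after seeing the data, and each has 1 mouse of one genotype, so that they give no test of genotype. The part of tissue makeup in the differences was not tested.

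**Figure D3:**
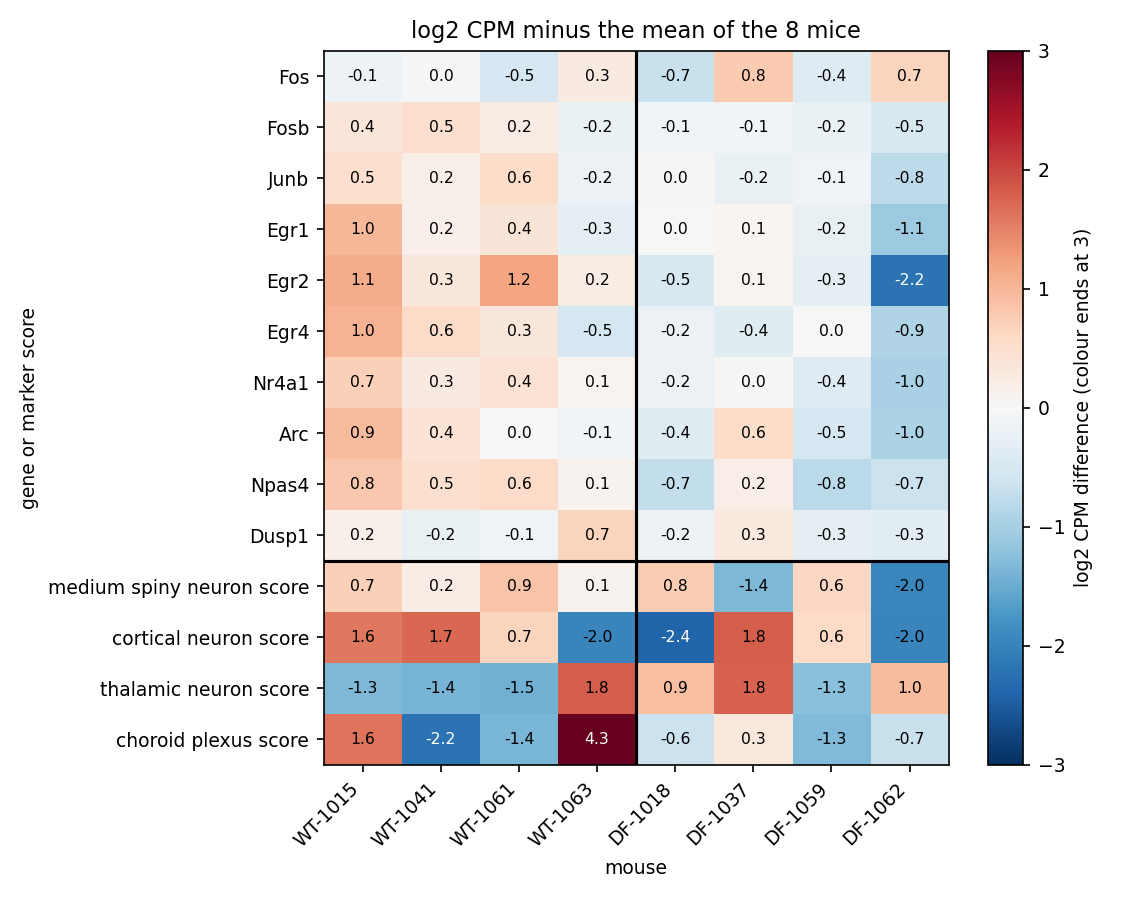
log2 CPM of the 10 genes and 4 marker scores in each mouse, minus the mean of the 8 mice, with the value printed in each cell and the colour scale ending at 3. WT-1015 is high and DF-1062 low for most genes, and DF-1037 and DF-1062 have the low medium spiny neuron scores of 6.75 and 6.15.

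Within a genotype, 9 of the 10 genes differed from mouse to mouse more than the median gene did. The spread of log2 CPM between mice of the same genotype lay at the 94.2nd percentile of all genes tested for Egr2, the 85.9th for Fos, the 85.0th for Arc, the 84.6th for Egr4 and the 83.5th for Egr1. Fosb, at the 49.2nd percentile, varied least. The FPKM of Egr1 spanned 2.35-fold among WT mice and 2.12-fold among 16p11.2+/- mice. Within each genotype the order of mice was partly shared: DF-1037 had the highest 16p11.2+/- value of 8 genes and DF-1062 the lowest of 7, while WT-1063 had the lowest WT value of 8 genes.

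The correlation between genes was computed over the 8 mice after subtraction of the mean of each genotype, because 4 mice are too few for a value within 1 genotype. Over the 45 pairs Pearson's r had a median of 0.59, from -0.73 to 0.96, and 36 pairs were positive. The 28 pairs among the 8 genes other than Fos and Dusp1 were all positive, with a median r of 0.71 and a median Spearman's rho of 0.61. Fos and Dusp1 were set apart after seeing the data, as the genes least like the others. That choice by itself raises the values of the 28 pairs, which therefore give no test of shared variation. The highest was Egr1 with Nr4a1 (r = 0.96, exact permutation within genotype, p = 0.00174; rho = 0.95, permutation p = 0.00174). Leaving out the pair of mice farthest from the median of Egr1 gave an r of 0.89. Egr2 with Nr4a1 followed (r = 0.92, permutation p = 0.0122; rho = 0.81, permutation p = 0.0434). Adjusted over the 45 pairs no permutation p was under 0.05, and the lowest was 0.0783 for Egr1 with Nr4a1. With 576 arrangements 0.00174 is the smallest p possible, so that no pair could pass this adjustment on its own.

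Fos stood apart here too. Its r with the other 8 genes had a median of -0.37, and with Junb it was -0.73 (exact permutation within genotype, p = 0.0260, adjusted over the pairs 0.124; rho = -0.79, permutation p = 0.0243). With the pair of mice farthest from the median of Fos left out, r with Junb was -0.91. Dusp1 had a median r of 0.13 with the 8 genes and an r of 0.46 with Fos. When the 2 mice farthest from the median of the first gene of a pair were left out, the median r of the 45 pairs was 0.08, with 24 positive. For the 28 pairs among the 8 genes other than Fos and Dusp1 it fell from 0.71 to 0.28, with 20 positive. That choice of mice also narrows the range of the gene it is made on. With any 1 mouse left out the median was 0.49 to 0.64, and without DF-1037 and DF-1062 it was 0.64.

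**Figure D4:**
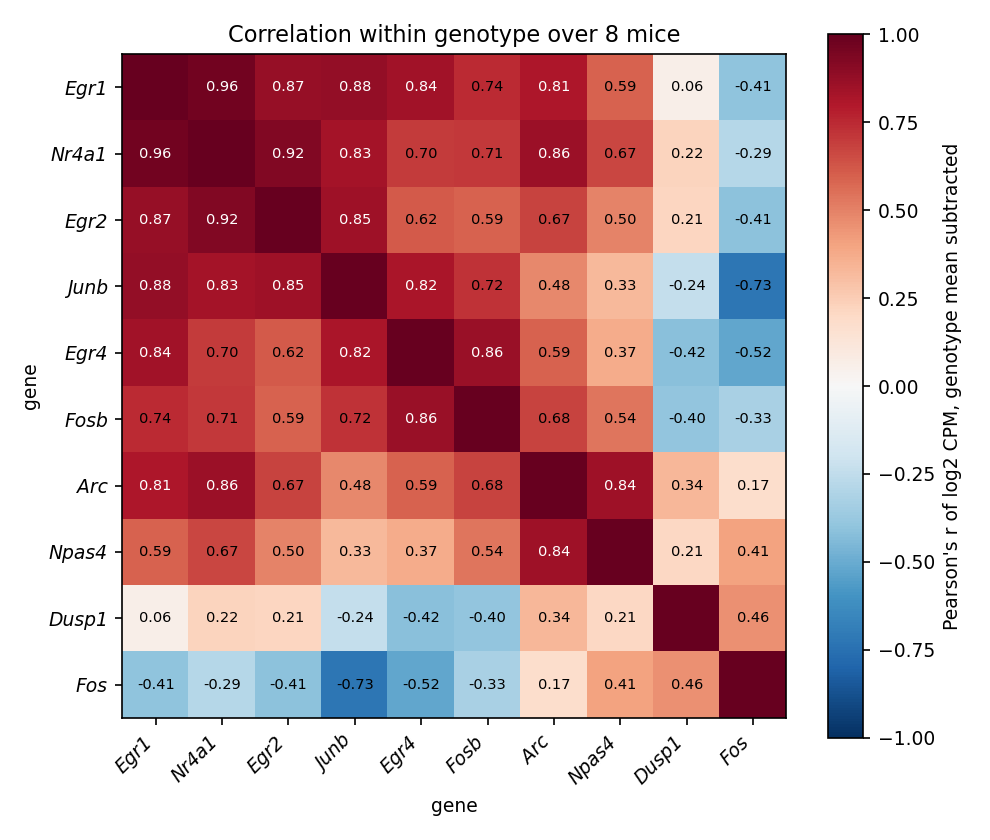
Pearson's r of log2 CPM for each pair of the 10 genes over 8 mice, with the mean of each genotype subtracted. The 8 genes from Egr1 to Npas4 are positive with one another (0.33 to 0.96), and the row of Fos is negative with 6 of these 8. Fos and Dusp1 were set apart after seeing the data.

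Set against all genes tested, the mean r of Nr4a1 with the other 9 genes was 0.62, which 18 of 18284 genes outside the list exceeded. For Arc 73 genes exceeded it, for Egr1 112 and for Egr2 524. For Npas4 1070 did, for Fosb 1383, for Junb 1652 and for Egr4 1808, whereas for Dusp1 8120 and for Fos 11775 did. The 10 genes outside the list whose pattern over the 8 mice was most like that of the list, by mean r with its 10 genes, were Ywhaz, Ier5, Gm38383, Klf10, Brinp1, C3ar1, Tspan5, Cabp1, Fmnl1 and Dusp14, with a mean r from 0.66 to 0.67. Ier5 and Klf10 are themselves immediate early genes. The least alike were Pla2g4e, Gm4972, Kmt2b, Gli1 and Cnnm3, with a mean r from -0.67 to -0.66. The points share their library and its tissue makeup, and these values are descriptions.

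Other genes of the activity response were read from lists that were also chosen with earlier results of these data known. Differences between the lists and the 10 genes are therefore not tests. Of all genes tested, 51.8% had a log2 fold change below 0. Of 35 further immediate early genes, all of them tested, 25 were lower in 16p11.2+/- striatum (median log2 fold change -0.16). edgeR called 0 of them after adjustment and 0 at an unadjusted p under 0.05, and DESeq2 and limma-voom called 0 after adjustment. The count at an unadjusted p was 4 lower and 1 higher without DF-1018, 3 lower without WT-1063, 3 lower without DF-1037 and 1 of each direction without DF-1059. More genes of any kind passed in these fits than the 434 lower and 356 higher of 18294 with all mice. They were 635 lower and 708 higher of 18728 without DF-1018, and 578 and 952 of 18641 without WT-1063. Without DF-1037 they were 578 and 483 of 18663, and without DF-1059 474 and 472 of 18690. Egr3, the fourth Egr gene, averaged 39.5 ± 8.66 FPKM in WT mice (SD, n = 4) against 23.5 ± 11.03 FPKM in 16p11.2+/- mice (SD, n = 4). Its log2 fold change was -0.75, with a standard error of 0.39 and an unadjusted edgeR p of 0.0872, and it was -0.45 without DF-1062. Arl4d, which encodes a small GTPase of the ARF family, was at -0.60 on the log2 scale (standard error 0.31) and Per1, also a clock gene, at -0.29 (standard error 0.14). WT-1063 lay well under the other WT mice for Egr3 (26.6 FPKM) and Arl4d (16.4 FPKM). Arl4d was at -0.40 without DF-1037 and Per1 at -0.19 without DF-1062. Nr4a2, a relative of Nr4a1 outside the rule for named genes and picked after its value was seen, had the highest log2 fold change of the list, 1.80 (edgeR unadjusted p = 0.106). This value rests on DF-1037, at 25.4 FPKM against 0.501 to 5.58 in the other 16p11.2+/- mice and 0.610 to 3.92 in WT, and it was 0.32 without that mouse. Over the 8 mice 10 of these 35 genes were among the 1828 genes most like the list of 18284 genes outside it.

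Of 15 genes that follow later after activity, such as Bdnf and Vgf, 8 were higher and 7 lower in 16p11.2+/- striatum (median log2 fold change 0.01). edgeR called 0 after adjustment and limma-voom 0, and 1, Cartpt, had an unadjusted p under 0.05. Cartpt, the precursor of a neuropeptide, had an FPKM of 0.414 in WT-1015, 1.94 in WT-1041, 1.24 in WT-1061 and 1.21 in WT-1063, and of 3.55 in DF-1018, 4.08 in DF-1037, 3.23 in DF-1059 and 14.2 in DF-1062. The lowest 16p11.2+/- value exceeded the highest WT value (log2 fold change 2.33, standard error 0.58, edgeR unadjusted p = 0.00321), as for 1.14% of the genes tested. On all 8 mice DESeq2 gave Cartpt an adjusted p of 0.0257. Without DF-1062 its log2 fold change in edgeR was 1.602, with an adjusted p of 0.999. Scg2, a secretogranin, was at 0.48 on the log2 scale (standard error 0.24) and Inhba, an activin subunit, at -0.61 (standard error 0.32), with DF-1062 apart at 2.21 FPKM. Without DF-1062 they were at 0.20 and -0.36.

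Of 30 regulators that lie upstream of these genes 24 were lower (median log2 fold change -0.10) and 1 was called, against 51.8% and 0.109% of all genes tested. The count of lower regulators was 12 (median 0.03) without DF-1037 and DF-1062, 15 (0.0069) with the medium spiny neuron score and 16 (-0.0057) with the thalamic score as a covariate. The lower ones among all genes in these fits were 10006 of 19092, 9496 of 18294 and 9199 of 18294. The regulator called was Mapk3, the gene of the kinase ERK1, which lies in the deleted segment. Its FPKM ranged from 35.7 to 46.4 in the 4 WT mice and from 20.7 to 22.3 in the 4 16p11.2+/- mice. Its log2 fold change was -0.94, with a standard error of 0.10 and an adjusted edgeR p of 0.00986. The call was lost without WT-1041, DF-1018 or DF-1059 (adjusted edgeR p from 0.0573 to 0.0631) and in the 3 fits that left out 2 or more mice (0.0611 to 0.443), while its log2 fold change stayed between -0.99 and -0.86 with each mouse left out. The kinase genes Map2k1 and Map2k2, upstream of Mapk3, had log2 fold changes of 0.04 and -0.01. Srf, with WT-1063 apart at 8.60 FPKM, had one of -0.25 (standard error 0.14), Creb1 of -0.10, and Prkaca, a catalytic subunit of protein kinase A, of 0.23 (standard error 0.13). Without DF-1062 Srf was at -0.12 and Prkaca at 0.12. Map2k1, Map2k2 and Creb1 lie outside the rule for named genes and are given as neighbours in the pathway.

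**Figure D5:**
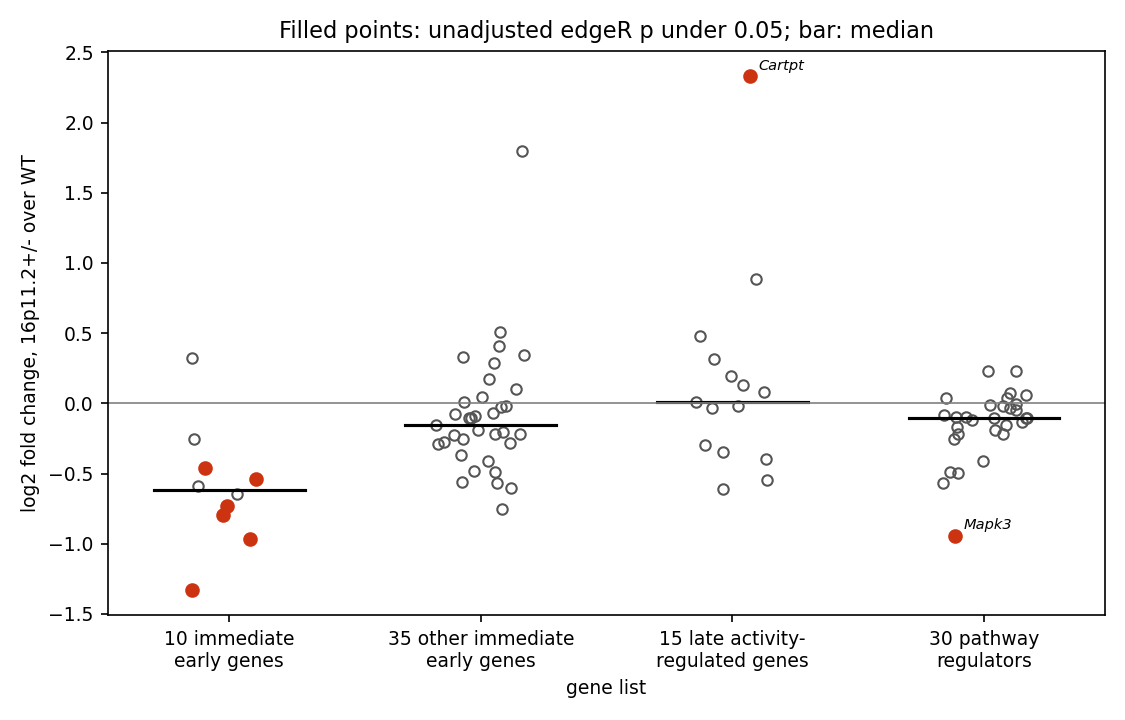
log2 fold change (16p11.2+/- over WT, edgeR) of each gene in 4 lists. Filled points have an unadjusted p under 0.05, and black bars are the medians, -0.62 for the 10 immediate early genes against -0.16, 0.01 and -0.10 for the other lists. The 4 lists were chosen with earlier results of these data known, so the medians give no test between them.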

How the data were processed

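Striatal RNA of 8 mice was sequenced, 1 library per mouse. After quality and adapter trimming, the authors aligned reads using Hisat2 2.1.0 and Htseq-count gave the raw count per gene that was deposited. The submitters' processing notes also name Bowtie 0.12.2 and the builds mm8 and mm9, with no role given. In the deposited FPKM the count is scaled by 1 fixed length per gene and by the library total (within 0.1% for 100% of 32058 genes). That length equals the GENCODE M21 (GRCm38) exon length within 0.5% for 97.5% of 35149 genes, but not for Npas4 and Dusp1. The authors' table of their own comparison (fold changes and p-values) and their summary of FPKM bins were not used.

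The quasi-likelihood test of edgeR 4.0.16 (R 4.3.3) was run on the counts with TMM scaling. Genes were kept by filterByExpr (minimum count 10, total 15), and p was adjusted by Benjamini-Hochberg over all of them at a threshold of 0.05. The standard error is the log2 fold change over the square root of F. Log2 CPM used a prior count of 2. Exact permutation tests on FPKM enumerated 70 assignments and were two-sided, and those on correlations enumerated 576 arrangements within genotype. Code was tested on simulated data. Counts of mice of 1 genotype differed by 8.81 to 62.7 times sampling noise (chi-square over its degrees of freedom), and each library was 1 sample. Nothing shows whether mice shared a litter or day.

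All 10 members were named, and Mapk3. From each list the 3 genes with the smallest p were named, and from all genes the 10 most and 5 least alike the members. The members and lists were chosen with earlier results of these data known. Other fits used DESeq2 1.42.0, limma 3.58.1 (voom on counts, trend on log2(FPKM + 1) or log2(FPKM + 0.1)), RLE factors, library totals, other filters, marker scores as covariates and mice left out. Fits with the medium spiny neuron score, or without 2 or more mice, were chosen after seeing the data. So was the split of Fos and Dusp1 from the other members in the correlations. Promoter sequences are from RefSeq (GRCm38.p6), and 8 of the 10 members matched by symbol.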

Additional observations from a re-analysis of the deposited data

Results flagged for a closer look

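In 8 of 54 groups of 4 mice, 1 mouse lay apart from the other 3, with a gap to the nearest, over the range, above Dixon's 95% critical value. Chance gives about 1 in 20 for independent groups of normally distributed values. These groups share the same mice, so the 8 of 54 cannot be set against that rate. Among the members this was Dusp1 in DF-1037, at an FPKM of 8.36, with its group otherwise between 5.63 and 5.89. In WT-1063 the FPKM of Egr3 was 26.6, with its group otherwise between 42.8 and 45.6. It had 16.4 for Arl4d against 25.7 to 26.8 and 8.60 for Srf against 10.7 to 11.1. Its thalamic marker score was 7.09 against 3.83 to 3.93. For Cartpt DF-1062 stood at an FPKM of 14.2, with its group otherwise between 3.23 and 4.08, and it had 2.21 for Inhba against 5.12 to 5.61. DF-1018 had an astrocyte marker score of 7.15 against 7.45 to 7.48.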

How the results depend on the processing

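No paired analysis was possible because nothing in the sources used here links mice of different genotypes by litter or day. After adjustment edgeR and each of the 22 alternatives called 0 of the 10 genes. At an unadjusted p under 0.05, 6 genes were lower, against 3 with the thalamic score and 2 with the medium spiny neuron score as a covariate. The count was 3 to 7 with each mouse left out. Over all genes tested, 434 were lower at this p, 530 and 372 with these scores, and 258 to 635 with each mouse left out. Negative log2 fold changes numbered 8 without WT-1015 and WT-1063 and 9 or 10 in the other alternatives. Fos turned to -0.31 with the medium spiny neuron score, to -0.45 without DF-1037 and DF-1062 and to -0.17 for WT-1015, WT-1041 and WT-1061 against DF-1059, and Dusp1 turned to 0.092 without WT-1015 and WT-1063. The count of 2 genes with an exact permutation p under 0.05 was 0 to 0 with each mouse left out, where 0.0571 is the smallest p possible. The median r of 0.59 was 0.40 as Spearman's rho, 0.52 on log2(FPKM + 0.1), 0.52 with library totals alone, 0.64 without DF-1037 and DF-1062 and 0.49 to 0.64 with each mouse left out. Of the late genes DESeq2 called 1, Cartpt, and edgeR 0. Cartpt had no value when 10 counts were required in every library. Of the regulators 1 was called, 0 to 1 with each mouse left out, and 0 without DF-1037 and DF-1062, without WT-1015 and WT-1063 and for the 3 WT mice against DF-1059. Over all genes the 20 calls were 31 in DESeq2, 8 to 18 with each mouse left out, 11 without DF-1037 and DF-1062, 3 without WT-1015 and WT-1063 and 3 for the 3 WT mice against DF-1059. Fewer mice entered every fit that left mice out. The cause of the shifts was not tested. Egr2 had the lowest count of the 10 genes, 14 in DF-1062.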
